A study of Mus musculus with 8 samples.

Results

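The genes described here are 9 genes of the oligodendrocyte lineage, measured in right hippocampi taken from 8 mice. They fall into 3 classes. Olig1, Olig2 and Sox10 are transcription factors of the whole lineage, Pdgfra and C1ql1 mark precursor cells, and Car2, Adamts4, Evi2a and Il33 are high in mature oligodendrocytes. They were taken by gene symbol: all probe sets (sets of short probes that together read 1 transcript) with a single symbol among these 9 names were used. That gave 13 probe sets of 22690 on the array and 9 genes of 12393 with 1 value each, where a gene with several probe sets was represented by the one with the highest mean over all arrays.

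The study set normal mice against mutant mice of a mucopolysaccharidosis VII colony, with 1 Affymetrix array per animal and 4 animals per group. Normal mice were heterozygous for the mps allele of Gusb (Gusb mps/+) and mutant mice were homozygous (Gusb mps/mps), so the controls carried the allele as well. All animals were of strain B6.C-H2-Kbm1/ByBir, came from carrier matings and shared cages until their brains were taken. Normals 1 to 4 were a female of 38.3 weeks, a male of 25.6 weeks, a male of 19.6 weeks and a female of 14.6 weeks. Mutants 1 to 4 were a female of 38.3 weeks, males 2 and 3 of 25.6 weeks, and a female of 19.6 weeks.

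Gusb encodes the lysosomal enzyme beta-glucuronidase, which removes terminal sugars from glycosaminoglycans, and its loss causes a storage disease. Oligodendrocytes are the cells that wrap axons of the central nervous system in myelin. They arise from precursors that carry the receptor for platelet-derived growth factor, and the switch to a mature cell turns off precursor genes and turns on genes for myelin and its upkeep. OLIG2 and SOX10 stay on through this whole course, so that these classes read different stages of 1 lineage.

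The values are on the log2 scale, on which a difference of 1 is a doubling, and each change is given as mutant minus normal with its moderated standard error (SE) from limma. No member passed an adjusted p of 0.05, the threshold used, in either direction (0 of 9, limma, Benjamini-Hochberg over 12393 genes). Of all genes, 0.00807% passed it as lower in mutants and 0.0968% as higher. The 4 mature-cell genes had lower values in every mutant than in any normal mouse, by 1.71- to 1.86-fold in the means, while the lineage factors and precursor genes overlapped between the groups. At an unadjusted p under 0.05, 4 of 9 members were lower and 0 were higher, against a background of 2.48% of all genes lower and 4.05% higher. Groups that did not overlap, with mutants lower, were found for 4 of 9 members and for 1.61% of all genes.

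All 13 member probe sets lay above the highest value (3.72) of 15 control probe sets that read bacterial transcripts not present in mouse RNA on all 8 arrays. Array medians ran from 6.09 to 6.17. One of the 2 Gusb probe sets was lower in every mutant (4.36 to 4.71) than in any normal mouse (5.40 to 6.56), and the other overlapped. The dissections differed in regional markers: the mean of 7 striatal genes was 9.25 to 10.38 in normals 1, 3 and 4 against 6.66 to 7.69 in the other 5 arrays. The mean of 12 choroid plexus genes reached 8.00 in mutant 1 and 6.99 in mutant 3, and the other 6 arrays lay at 4.39 to 5.38. Normal 1 stood apart in RNA quality, with a 3 prime minus 5 prime value of the actin and Gapdh controls of 3.58 against 0.22 to 0.75 elsewhere.

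**Figure D1:**
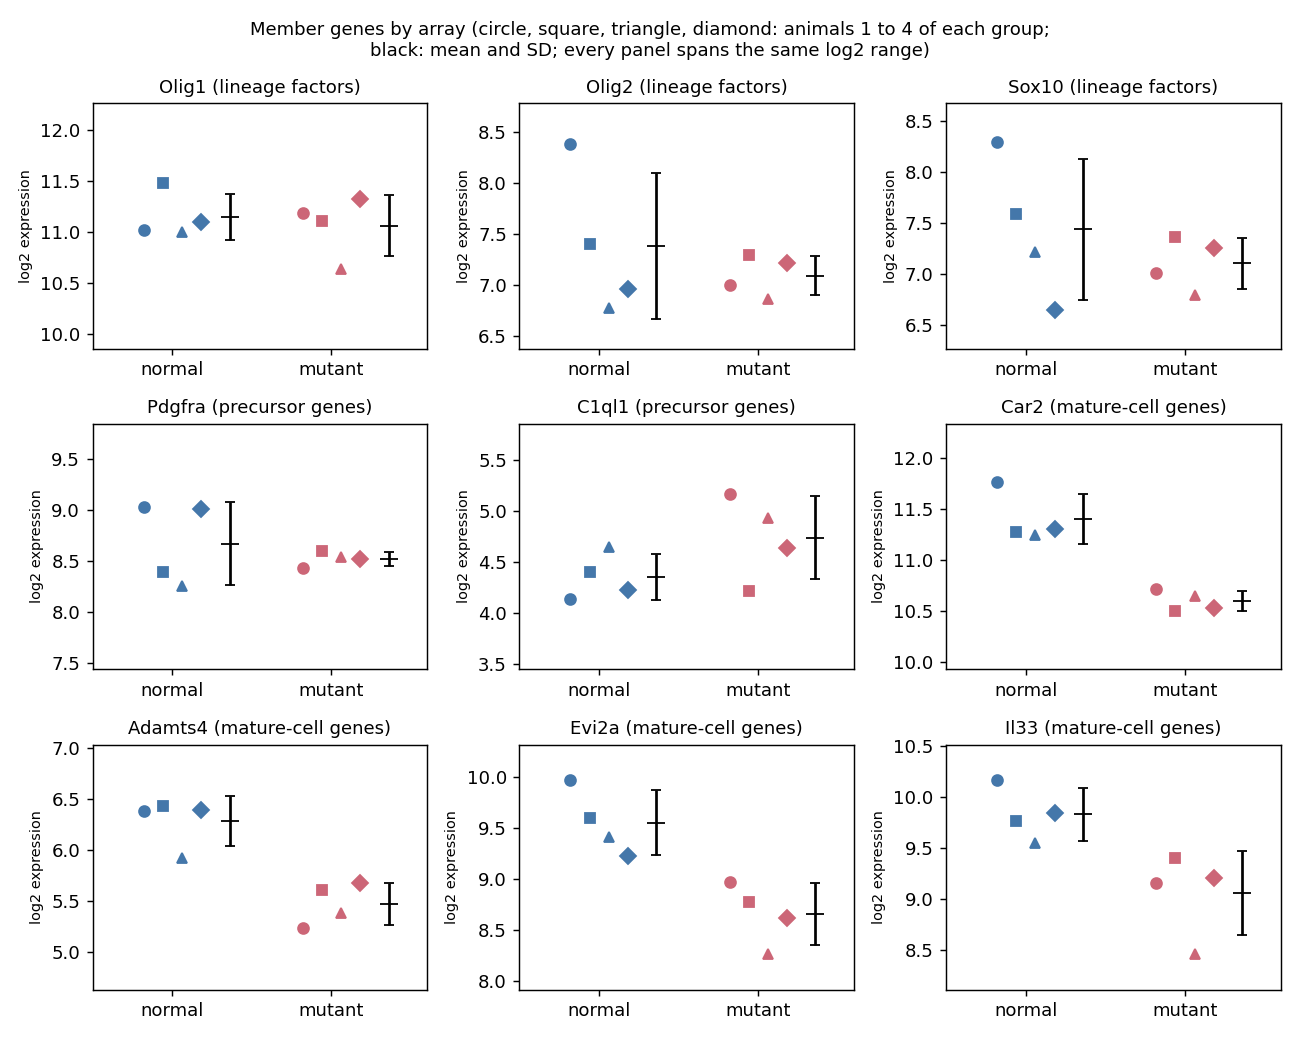
Deposited log2 values of the 9 genes, 1 panel per gene, with 1 symbol per animal (circle, square, triangle and diamond for animals 1 to 4 of each group) and the group mean with its SD in black. Every panel spans the same log2 range; for Car2, Adamts4, Evi2a and Il33 all 4 mutants sit below all 4 normals, and for the other 5 genes the points overlap.

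Promoter windows of 300 bases (250 before and 50 after an annotated start, RefSeq, GRCm38.p6) were at hand for 3 of the 9 genes, 1 of each class. They are shown because OLIG proteins bind E-boxes and SOX10 binds SOX sites. Capitals mark the E-box letters CANNTG and the SOX letters AACAAT, searched on both strands, and no match of one overlapped a match of the other. Of 32851 mouse promoters of the same length, 72.3% held the first and 10.7% the second. All 4 windows are on the plus strand and are printed 5′ to 3′.
Olig2 at chr16:91225300-91225599: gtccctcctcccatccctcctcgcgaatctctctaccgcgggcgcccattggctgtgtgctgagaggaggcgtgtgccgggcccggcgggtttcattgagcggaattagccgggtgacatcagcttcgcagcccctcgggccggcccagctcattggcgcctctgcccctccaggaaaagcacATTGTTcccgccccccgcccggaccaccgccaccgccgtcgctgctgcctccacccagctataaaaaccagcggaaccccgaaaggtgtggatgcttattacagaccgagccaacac
Pdgfra at chr5:75152001-75152300: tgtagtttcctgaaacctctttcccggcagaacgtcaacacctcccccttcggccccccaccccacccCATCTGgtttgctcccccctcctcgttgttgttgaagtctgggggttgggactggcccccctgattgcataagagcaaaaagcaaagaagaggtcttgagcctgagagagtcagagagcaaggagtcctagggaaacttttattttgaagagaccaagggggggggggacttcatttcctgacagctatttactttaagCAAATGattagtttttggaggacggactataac
Il33 at chr19:29924863-29925162: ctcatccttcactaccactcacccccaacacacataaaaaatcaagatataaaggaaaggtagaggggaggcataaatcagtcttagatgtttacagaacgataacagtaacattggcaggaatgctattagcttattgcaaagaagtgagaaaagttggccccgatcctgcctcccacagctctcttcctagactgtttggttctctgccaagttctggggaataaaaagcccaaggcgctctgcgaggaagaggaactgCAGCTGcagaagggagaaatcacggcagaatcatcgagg
Il33, second start, at chr19:29945540-29945839: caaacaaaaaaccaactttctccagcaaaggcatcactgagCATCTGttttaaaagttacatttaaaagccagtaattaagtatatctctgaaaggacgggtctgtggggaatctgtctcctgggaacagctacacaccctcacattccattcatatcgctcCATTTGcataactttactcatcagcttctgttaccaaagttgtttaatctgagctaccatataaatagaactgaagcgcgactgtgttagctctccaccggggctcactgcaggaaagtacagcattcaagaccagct
The Olig2 window held 1 SOX match, printed as its reverse complement, and 0 E-boxes. The Pdgfra window held 2 E-boxes, and the Il33 windows held 1 and 2. A match of letters is a description of the window and not a binding site.

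Car2 encodes carbonic anhydrase 2, the cytosolic enzyme that interconverts carbon dioxide and bicarbonate and that is used as a marker of oligodendrocytes. Its probe set (1448752_at) read 11.76, 11.27, 11.25 and 11.30 in normals 1 to 4 and 10.71, 10.50, 10.64 and 10.52 in mutants 1 to 4. Normal 1 was the highest of all, the other 3 normals lay close together, and the groups did not overlap. The normal mean was 11.39 ± 0.25 and the mutant mean 10.59 ± 0.10 (SD, n = 4 each), a difference of -0.80 with an SE of 0.14 and a 95% interval of -1.12 to -0.48. The adjusted p in limma was 0.138 (unadjusted p = 0.000355), and 0.0335 when arrays were weighted by their quality, the 1 setting of 26 in which a member passed the threshold. Here and below, in RNA from whole tissue, fewer cells of a type and less RNA per cell cannot be told apart.

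Adamts4 encodes a secreted protease of the aggrecanase family, which cuts chondroitin sulfate proteoglycans, and it had 2 probe sets. The brighter one (1452595_at) read 6.38, 6.43, 5.92 and 6.39 in normals and 5.23, 5.60, 5.38 and 5.68 in mutants. Normal 3 was nearest to the mutants, but still above mutant 4, the highest of them. The means were 6.28 ± 0.24 and 5.47 ± 0.21 (SD, n = 4 each), a difference of -0.81 (SE 0.16, 95% interval -1.17 to -0.45, limma adjusted p = 0.196). The second probe set (1455965_at) read 6.03, 5.74, 5.44 and 5.86 in normals and 4.49, 4.81, 4.79 and 4.53 in mutants. This gave a larger difference of -1.11 (SE 0.15, 95% interval -1.46 to -0.77), or 2.16-fold. Its adjusted p was 0.062 in the limma fit of all 22626 probe sets that are not controls, so both probe sets separated the groups and neither passed the threshold.

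Evi2a encodes a small membrane protein and lies inside the spans of Nf1 and Evi2 in the GRCm38.p6 gene table. Probe set 1450241_a_at read 9.97, 9.60, 9.42 and 9.23 in normals and 8.97, 8.78, 8.27 and 8.62 in mutants. The highest mutant, mutant 1, was the oldest of its group, and it stayed below normal 4, the youngest and lowest normal mouse. The means were 9.55 ± 0.32 and 8.66 ± 0.30 (SD, n = 4 each), a difference of -0.89 (SE 0.20, 95% interval -1.35 to -0.44, limma adjusted p = 0.313). A further 2 probe sets list several symbols of this locus and are not members: they read 2.74 to 3.36 and 2.36 to 2.87, within the range of the absent bacterial controls.

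Il33 encodes interleukin 33, a nuclear cytokine that mature oligodendrocytes and some astrocytes hold and release on damage. Probe set 1416200_at read 10.16, 9.76, 9.54 and 9.84 in normals and 9.16, 9.40, 8.46 and 9.20 in mutants. Mutant 3 was the lowest of all, and the gap between mutant 2 and normal 3 was the narrowest between the groups among the mature-cell genes. The means were 9.83 ± 0.26 and 9.05 ± 0.41 (SD, n = 4 each), a difference of -0.77 (SE 0.22, 95% interval -1.28 to -0.27, limma adjusted p = 0.473).

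Olig1 encodes a basic helix-loop-helix factor needed for remyelination, and in the GRCm38.p6 gene table it is the neighbour of Olig2 on chromosome 16, with 0 protein-coding genes between them. Probe set 1416149_at read 11.02, 11.48, 11.00 and 11.10 in normals and 11.19, 11.11, 10.63 and 11.32 in mutants. The groups overlapped, with normal 2 highest and mutant 3 lowest. The difference was -0.09 (SE 0.18, 95% interval -0.50 to 0.32, limma adjusted p = 0.963), and the sign turned without normal 2 (0.02) or mutant 3 (0.05). An interval of this width does not show that the groups were alike.

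Olig2 encodes the related factor that specifies the lineage. Probe set 1416232_at read 8.38, 7.41, 6.78 and 6.96 in normals and 7.00, 7.29, 6.87 and 7.22 in mutants. Normal 1 was well above the other 7 arrays, which overlapped. The difference was -0.29 (SE 0.32, 95% interval -1.02 to 0.45, limma adjusted p = 0.929). Without normal 1 it was 0.05, and with the neuron marker mean as a covariate it was -0.60 (unadjusted p = 0.0355, adjusted p = 0.85, limma).

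Sox10 encodes an HMG-box factor that acts on myelin genes, and it had 3 probe sets. The brightest (1451689_a_at) read 8.29, 7.59, 7.22 and 6.65 in normals and 7.02, 7.36, 6.80 and 7.26 in mutants. The 4 normals spanned more than the mutants and enclosed all of them. The difference was -0.33 (SE 0.32, 95% interval -1.06 to 0.39, limma adjusted p = 0.913). It was -0.05 without normal 1, -0.59 without normal 4 and -0.58 with the neuron marker mean as a covariate. The other probe sets (1424985_a_at and 1425369_a_at) had differences of -0.11 and 0.07 and overlapped as well.

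Pdgfra encodes the alpha receptor for platelet-derived growth factor, which drives the division of precursors, and it had 2 probe sets. The brighter one (1421917_at) read 9.03, 8.39, 8.25 and 9.002 in normals and 8.43, 8.59, 8.54 and 8.52 in mutants. The mutants lay close together (SD 0.07) between the female normals, which were high, and the male normals, which were low. The difference was -0.15 (SE 0.19, 95% interval -0.59 to 0.29, limma adjusted p = 0.943), with array weights it was 0.06, and with the mean of both probe sets it was -0.27 (unadjusted p = 0.0253, adjusted p = 0.667, limma). The dimmer probe set (1421916_at) read 4.33, 4.68, 4.79 and 4.48 in normals and 4.17, 4.37, 4.19 and 4.01 in mutants. Its difference was -0.39 (SE 0.14, unadjusted p = 0.0205, adjusted p = 0.782 in the limma fit of all probe sets), and mutant 2 overlapped normal 1.

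C1ql1 encodes a secreted C1q-like protein that precursors express and that also acts at synapses. Probe set 1422777_at read 4.14, 4.41, 4.65 and 4.23 in normals and 5.17, 4.22, 4.93 and 4.64 in mutants. It was the only member with a higher mean in mutants, and mutant 2 lay below normals 2, 3 and 4. Mutants 1 and 3, the arrays with high choroid plexus means, had the highest values, and mutants 2 and 4 lay within the range of the normals. The part of choroid plexus content was not tested. The difference was 0.38 (SE 0.21, 95% interval -0.10 to 0.87, limma adjusted p = 0.843). Its lowest value, 4.14, was near the highest absent control, 3.72.

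Over the 13 probe sets, 0 passed an adjusted p of 0.05, against 0.00884% of all probe sets called lower. At an unadjusted p under 0.05, 6 of 13 were lower and 0 higher, against 2.81% lower of all probe sets, and 5 of 13 did not overlap, against 1.75%. The 5 were the probe sets of the mature-cell genes, 2 of them of Adamts4.

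**Figure D2:**
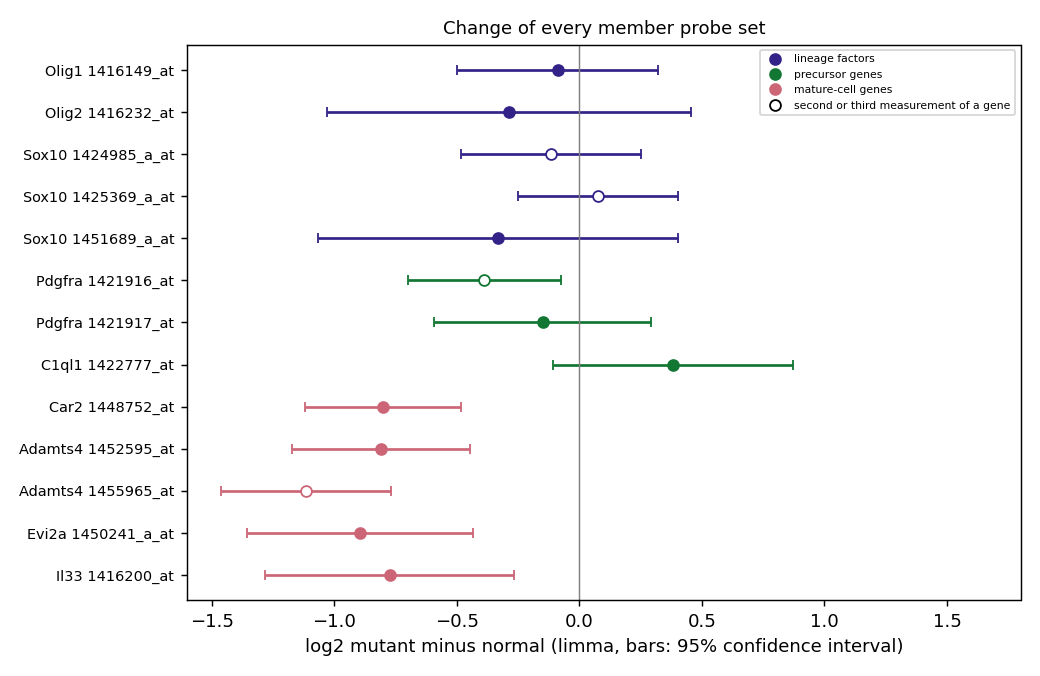
Mutant minus normal difference on the log2 scale for each of the 13 probe sets, with bars for the 95% interval from limma, colours for the 3 classes and open circles for probe sets not used as the gene's value. The 5 probe sets of Car2, Adamts4, Evi2a and Il33 lie between -1.11 and -0.77, and those of the other genes between -0.39 and 0.38.

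The classes were set against each other within each array, which describes their balance and was not tested, since the classes were chosen with earlier results known. The mean of the 4 mature-cell genes was 9.57, 9.26, 9.03 and 9.19 in normals 1 to 4 and 8.52, 8.57, 8.19 and 8.51 in mutants 1 to 4. The mean of the 3 lineage factors was 9.23, 8.83, 8.33 and 8.24 in normals and 8.40, 8.59, 8.10 and 8.60 in mutants. The first set did not overlap between groups and the second did.

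The mature mean minus the lineage mean of the same array was 0.34, 0.44, 0.70 and 0.95 in normals and 0.12, -0.02, 0.08 and -0.09 in mutants. Each normal mouse thus had a larger mature excess than any mutant, and normal 1, which had the highest values of both classes, had the smallest excess of the normals. The mean of the 2 precursor genes was 6.40 to 6.61 in normals and 6.41 to 6.80 in mutants, and the mature mean minus this mean was 2.58 to 2.98 in normals and 1.45 to 2.16 in mutants. Levels of different probe sets are not comparable with each other, so only the differences of these quantities between arrays can be read.

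**Figure D3:**
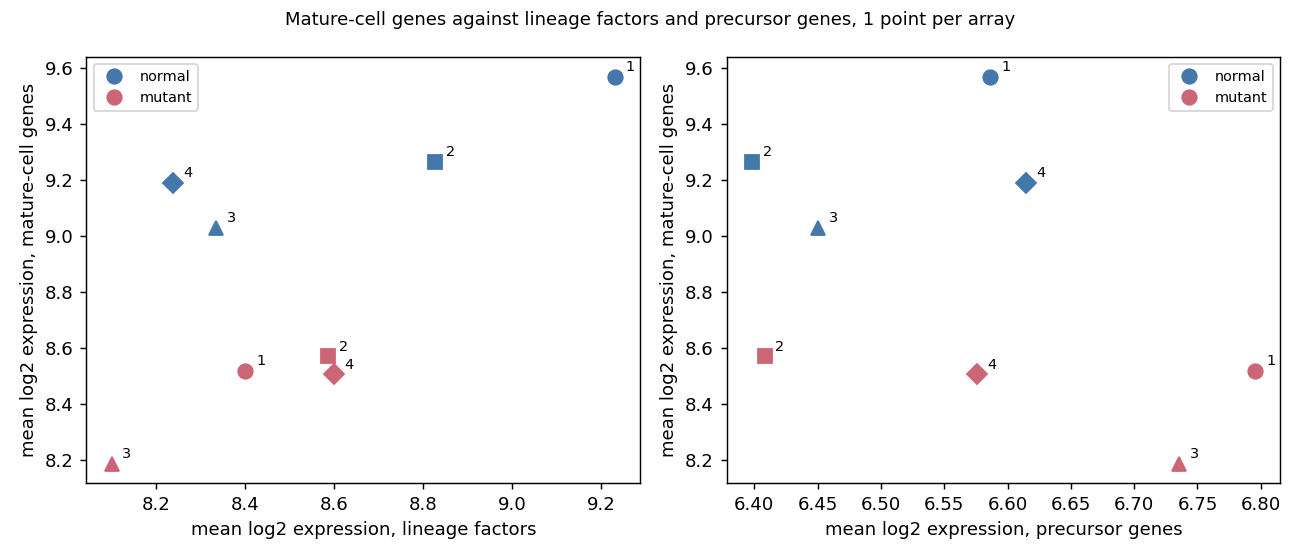
Mean log2 value of the 4 mature-cell genes (vertical axes) against the mean of the 3 lineage factors (left) and of the 2 precursor genes (right), 1 point per array with the animal's number. The normals lie at 9.03 to 9.57 on the vertical axis and the mutants at 8.19 to 8.57, while both groups overlap along the horizontal axes.

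List means of markers of some other cell types also stood apart between the genotypes. The mean of 14 astrocyte genes ran from 8.92 to 9.32 among normals and from 9.43 to 9.65 among mutants, with 13 of 14 higher in the mean. This list includes Gfap, which rose by 2.27 (limma adjusted p = 0.00787), the largest change in it. The separation of the list mean leaned on Gfap and is not a shift shared evenly by the list. For 13 microglial genes it ran from 7.49 to 8.16 among normals and from 8.35 to 8.65 among mutants, with 8 of 13 higher in the mean. For 15 meningeal and fibroblast genes the mean ran from 5.02 to 5.62 among normals and from 5.64 to 6.56 among mutants. Endothelial and pericyte markers overlapped, at 6.50 to 6.85 in mutants and 6.05 to 6.67 in normals, with 14 of 14 higher in the mean. Of the choroid plexus genes, 12 of 12 were higher in the mean, against 6509 of 12393 over all genes. Neuron markers overlapped, at 9.19 to 9.50 in mutants and 9.22 to 9.77 in normals. The part of these shifts in the mature-cell genes was not tested.

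Striatal markers were higher in most normals and choroid plexus markers in mutants 1 and 3, and their part in the mature-cell genes was not tested. Of the normals, 3 of 4 had a striatal mean above every mutant. Normal 2 had a striatal mean of 7.47, inside the range of the mutants, and its Car2 (11.27), Adamts4 (6.43), Evi2a (9.60) and Il33 (9.76) were above every mutant. Mutants 2 and 4 had choroid plexus means of 5.28 and 5.29, inside the range of the normals. Their Car2 (10.50 and 10.52), Adamts4 (5.60 and 5.68), Evi2a (8.78 and 8.62) and Il33 (9.40 and 9.20) were below every normal mouse. In mutants 1 and 3, Adamts4 (5.23 and 5.38) and Il33 (9.16 and 8.46) were lower still. Car2 (10.71 and 10.64) was higher there, and Evi2a (8.97 and 8.27) lay on both sides. Without normal 1, the array of low RNA quality, the 4 differences were between -0.77 and -0.66. The thalamic and habenular mean was lowest of each group in normal 4 (6.85) and mutant 3 (6.57), as was Sox10 (6.65 and 6.80). Mutant 2 was the highest mutant in both, but among normals the mean was highest in normal 2 and Sox10 in normal 1. The part of thalamic content in the members' values was not tested.

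Animals of the same age and sex allowed 3 comparisons, normal 1 with mutant 1 and normal 2 with mutants 2 and 3, the last 2 of which share normal 2. Car2 was lower in the mutant by 1.05, 0.77 and 0.63 in these 3, and Adamts4 by 1.15, 0.83 and 1.05. Evi2a was lower by 1.00, 0.82 and 1.33, and Il33 by 1.01, 0.36 and 1.31. The mature-cell genes were therefore lower in all 3. Olig2 differed by -1.38, -0.11 and -0.54 and Sox10 by -1.28, -0.23 and -0.79, while Pdgfra (-0.60, 0.21 and 0.15), Olig1 (0.17, -0.38 and -0.85) and C1ql1 (1.02, -0.19 and 0.53) took both signs.

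The animal numbers in the labels fall into a lower and a higher series, with 2 normals and 2 mutants in each. Car2 differed by -0.91 in the lower series and -0.69 in the higher, Adamts4 by -0.99 and -0.63, Evi2a by -0.91 and -0.88 and Il33 by -0.68 and -0.86. Olig2 and Sox10 took opposite signs: Olig2 differed by -0.75 in the lower series and 0.17 in the higher, and Sox10 by -0.75 and 0.09. The lower series holds normal 1.

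Age was tested as a slope with genotype as a term. No member passed an adjusted p of 0.05 in limma (0 of 9, and 0% of all genes, of which 5.74% had an unadjusted p under 0.05), and 2 of 9 were higher with age at an unadjusted p under 0.05, against 4.16% of all genes. Evi2a had a slope of 0.028 log2 units per week (SE 0.009, unadjusted p = 0.0165, adjusted p = 0.794, limma), and Car2 of 0.017 (SE 0.007, unadjusted p = 0.0453, adjusted p = 0.794). Olig2 and Sox10 had slopes of 0.038 each, at unadjusted p of 0.0537 and 0.0541 in limma.

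Sox10 and Evi2a stood in order of age in the 4 normals, from 8.29 and 9.97 at 38.3 weeks to 6.65 and 9.23 at 14.6 weeks. They did not in the mutants: Sox10 was 7.02 at 38.3 weeks, 7.36 and 6.80 at 25.6, and 7.26 at 19.6. Evi2a was 8.97 at 38.3 weeks, 8.78 and 8.27 at 25.6, and 8.62 at 19.6. The oldest normal mouse is also the array of low RNA quality, so age and RNA quality cannot be told apart there. Without normal 1, the Car2 slope was 0.0073 (unadjusted p = 0.443, limma) and the Evi2a slope 0.025 (unadjusted p = 0.105). The youngest animal was a normal mouse of 14.6 weeks with no mutant of like age, and with age as a covariate 4 of 9 members were lower at an unadjusted p under 0.05 in limma, against 2.51% of all genes in that fit, with Car2 at an adjusted p of 0.0694.

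**Figure D4:**
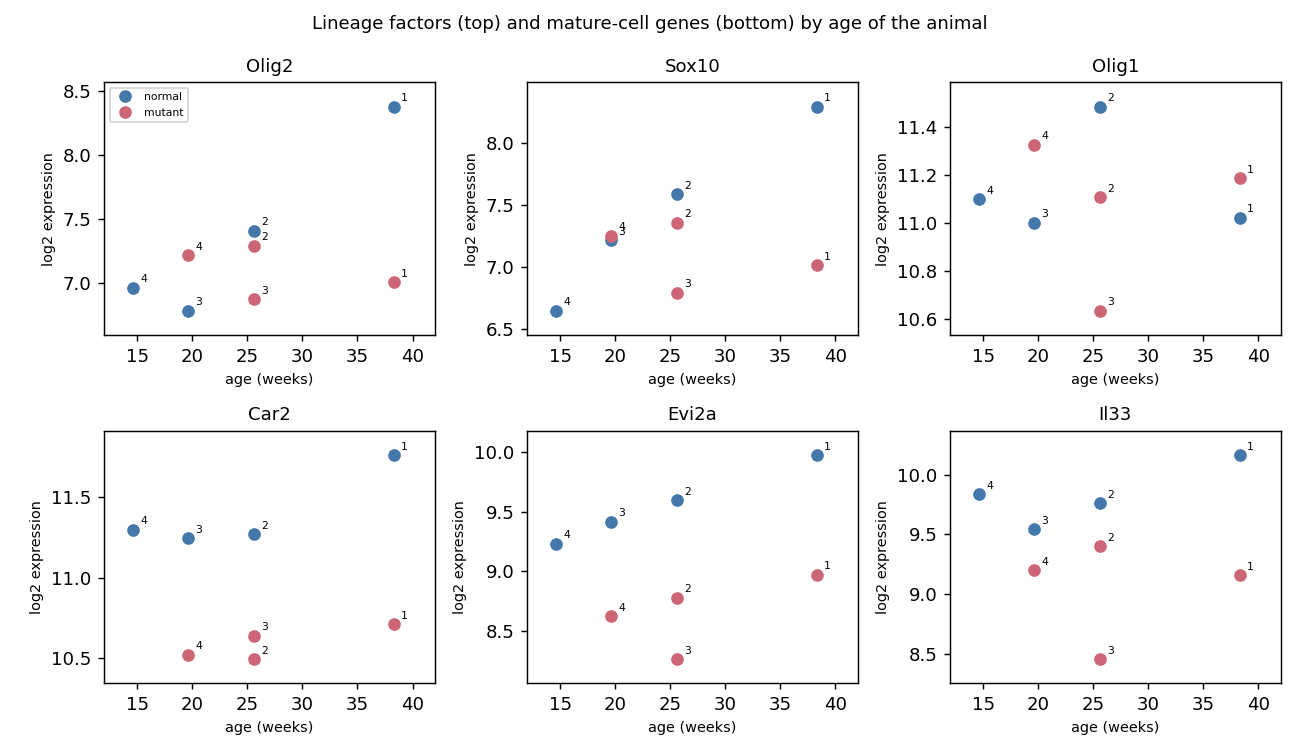
Deposited log2 values of Olig2, Sox10 and Olig1 (top) and Car2, Evi2a and Il33 (bottom) against age in weeks, normal and mutant mice in 2 colours, with the animal's number beside each point. Evi2a and Sox10 stand in order of age in the normals but not in the mutants. The mutant values of Car2, Evi2a and Il33 lie below the normal ones at every age the groups share.

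Sex was tested with genotype as a term, and 0 of 9 members had an adjusted or unadjusted p under 0.05 in limma, against 0.0323% and 1.95% of all genes. The interaction of genotype and sex, which asks whether the mutant difference was unlike in females and males, gave 1 of 9 members at an unadjusted p under 0.05, against 11.5% of all genes. That was Pdgfra, with a difference of -0.54 in females (9.02 in normals, 8.47 in mutants) and 0.25 in males (8.32 and 8.57). The interaction was 0.79 (SE 0.20, unadjusted p = 0.0058, adjusted p = 0.34, limma), with 2 animals in each of the 4 cells, and no gene on the array passed the adjusted threshold for it. Car2 was lower by 0.91 in females and 0.69 in males, Adamts4 by 0.93 and 0.68, Evi2a by 0.80 and 0.98 and Il33 by 0.82 and 0.72.

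Correlations across the 8 arrays, whose points share the 2 genotypes, describe how alike the members' values ran. Olig2 and Sox10 had a Pearson r of 0.909, and 0.899 after the group means were removed. Evi2a and Il33 had 0.916, and 0.753 within groups, and Car2 and Evi2a had 0.912 and 0.602. Car2 and Adamts4, read from its brighter probe set, had 0.836, but 0.008 within groups. With that probe set, their likeness across arrays lay in the difference between genotypes. The correlation of Car2 with the dimmer Adamts4 probe set was not tested, so this reading is limited to the brighter one.

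For each member, the 2 other genes with the highest r across the 8 arrays were found among genes with a mean above the median of all genes. Car2 was nearest to Selplg (0.967), a leukocyte adhesion ligand, and to Bcs1l (0.957), a mitochondrial assembly factor. After the group means were removed these were 0.743 and 0.670. Adamts4 was nearest to Tspan2 (0.885), a tetraspanin of myelinating cells, and Riok2 (0.862), with 0.629 and 0.314 within groups. Evi2a was nearest to Abca8a (0.981) and Clmp (0.961), and Il33 to Jam3 (0.970), a junction adhesion molecule, and Ugt8a (0.960), the enzyme that makes the myelin lipid galactosylceramide. Within groups these were 0.951 and 0.856 for Evi2a and 0.936 and 0.888 for Il33. The lineage factors were nearest to Itpk1 (0.960) and Dusp26 (0.936) for Olig1, Nop2 (0.979) and Rab31 (0.967) for Olig2, and Otud7b (0.990) and Grb14 (0.975) for Sox10. The precursor genes were nearest to Rala (0.985) and Sfpq (0.972) for Pdgfra and to Tcn2 (0.951) and Fbxo2 (0.898) for C1ql1. For the named neighbours of the lineage factors and precursor genes, r within groups was 0.902 to 0.988. With so many genes and 8 arrays high values arise readily, and these are descriptions.

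The wider lineage was read from 4 lists of other genes, chosen with earlier results of these data known, so their counts are descriptions. Of 57 measured of 72 other mature oligodendrocyte genes, 50 had a lower and 7 a higher mean in mutants, with a median difference of -0.50 against 0.01 over all genes. Their mean per array was 8.06 to 8.67 in normals and 7.59 to 8.11 in mutants, so that the groups overlapped. Only Lpar1, a receptor for lysophosphatidic acid, passed the threshold: it fell by 1.11 (SE 0.12, limma adjusted p = 0.0111), in all 4 mutants against all 4 normals. At an unadjusted p under 0.05, 24 of 57 were lower and 2 higher, against 2.48% and 4.05% of all genes, and 14 and 2 did not overlap, against 1.61% and 2.27%.

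After Lpar1, the smallest p in this list belonged to Sgk2, a protein kinase (-0.90, limma adjusted p = 0.313), Cnp, the myelin phosphodiesterase (-0.84, adjusted p = 0.321), and Ugt8a (-1.14, adjusted p = 0.344). The 2 genes higher at an unadjusted p under 0.05, named after their values were seen, were Cd9 (0.68) and Plp2 (0.46), membrane proteins that other cells make as well. The lower count of this list depended on single animals: it was 15 without normal 1, 15 without normal 2 and 13 without mutant 3. The Lpar1 call was lost (limma adjusted p above 0.05) without normal 3, normal 4, mutant 2 or mutant 4.

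Of 27 measured of 31 other lineage regulators, 15 had a lower and 12 a higher mean, the median was -0.01 and 0 passed the threshold in limma. At an unadjusted p under 0.05, 0 were lower and 1 higher. The smallest p belonged to Sox9, a factor shared with astrocytes (0.58, adjusted p = 0.572), Hdac1, a histone deacetylase (0.32, adjusted p = 0.771), Myrf, the factor that turns on myelin genes (-0.50, adjusted p = 0.813), and Prox1, which dentate granule cells also express (0.92, adjusted p = 0.843).

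Of 25 measured of 33 other precursor genes, 7 had a lower and 18 a higher mean, the median was 0.09, and 0 passed in limma, with 1 higher at an unadjusted p under 0.05. Their mean per array ran from 6.66 to 6.97 among normals and from 6.98 to 7.07 among mutants. The highest normal (normal 4, 6.974) and the lowest mutant (mutant 3, 6.977) were almost level. Rlbp1 alone was higher in every mutant than in any normal mouse, by 1.10 in the means. A single gene such as this can set so narrow a margin, so it is not read as a separation of the list. The smallest p belonged to Rlbp1, a retinaldehyde-binding protein (1.10, adjusted p = 0.379), Bcan, a chondroitin sulfate proteoglycan (0.40, adjusted p = 0.778), Calcrl, a peptide receptor that endothelium also makes (0.40, adjusted p = 0.84), and Ptprz1, a receptor phosphatase shared with astrocytes (0.40, adjusted p = 0.844). The astrocyte mean, which includes Gfap, was higher in all 4 mutants too, and the part of astrocytes in this list was not tested.

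Of 7 measured of 9 ligands, receptors and neighbours of PDGF and IL-33, 1 had a lower and 6 a higher mean, with a median of 0.28 and 0 past the threshold or an unadjusted p under 0.05 in limma. The smallest p belonged to Pdgfrb, the beta receptor that pericytes carry (0.42), Il1rap, the co-receptor of the IL-33 receptor (-0.58), Pdgfb, a PDGF ligand (0.29), and Nf1, whose span holds Evi2a (0.28), with adjusted p of 0.844 to 0.877 in limma.

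**Figure D5:**
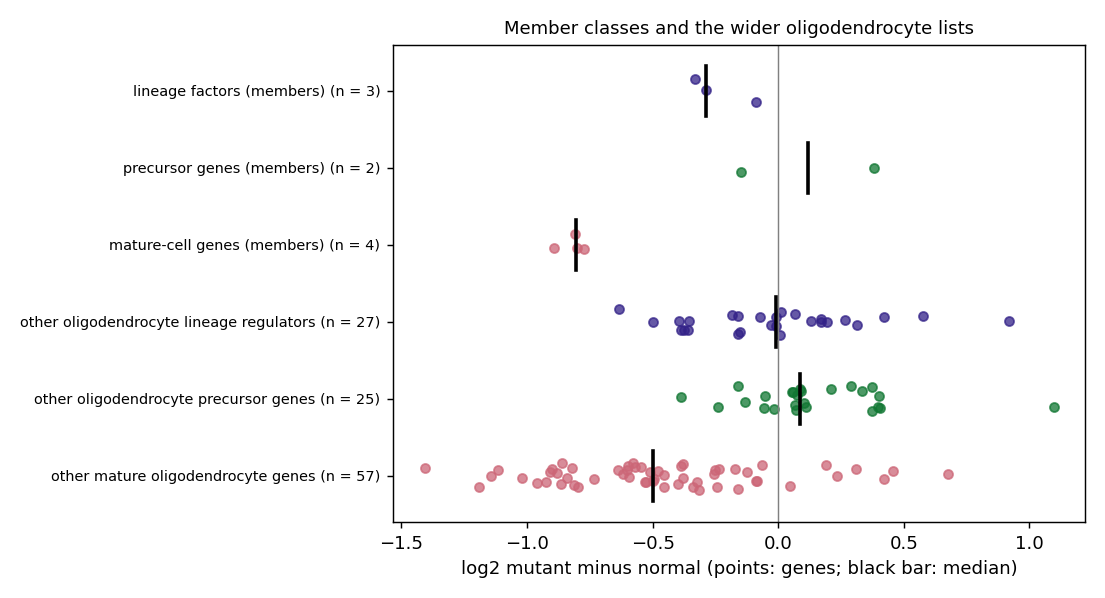
Mutant minus normal differences on the log2 scale for the 3 member classes and the 3 wider oligodendrocyte lists, with 1 point per gene (spread vertically for legibility) and a black bar at each median. The other mature genes have a median of -0.50, and the other lineage regulators and precursor genes have medians of -0.01 and 0.09.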

How the data were processed

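Total RNA of 8 mice was hybridised to 1 array each. The authors deposited log2 expression values per probe set, summarised with RMA, and GCOS 1.4 is named as well, per the submitters' processing notes. Their genome build is not given in the sources used here, and scanner files were not used here, so background correction could not be repeated.

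Of 22690 probe sets, 64 were controls, 20380 had 1 gene symbol, 691 several and 1555 none listed. Symbols were updated through gene identifiers (20351 matched, 99.9%), and 4956 genes had more than 1 probe set. No dim gene was removed. Groups were compared by lmFit and eBayes (limma 3.58.1, R 4.3.3), two-sided, with Benjamini-Hochberg adjustment over all genes or all probe sets. Sex, age and interaction fits were run the same way. Arrays give no counts, so the 4 animals per group limit the precision. The p-values set each difference against the spread between these animals, moderated by the spread over all genes. The steps were tested on simulated data. Figures were drawn with Python 3.11.15.

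The members and gene lists were chosen with earlier results of these data known. Named are all members, in each list the genes past the threshold and otherwise the 4 with the smallest p, and the 2 genes most like each member. Of the listed genes, 2 were matched under an older symbol. Replicate numbers follow the order of the samples, and their deviations did not pair them (r of -0.24, 0.06, 0.39 and -0.15). The alternatives were other probe set choices, normalizations, weights, covariates, blocks and left-out animals.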

Additional observations from a re-analysis of the deposited data

Results flagged for a closer look

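In 26 checks of 4 animals each, 2 found an animal far from the rest of its group, where chance gives about 1 in 20. Car2 (1448752_at) was 11.76 in normal 1 against 11.25 to 11.30 in the other normals, a gap of 0.897 of the group's range. Normal 1 is the array with the 3 prime minus 5 prime value of 3.58, and the part of RNA quality was not tested. Without it Car2 differed by -0.68. Adamts4 (1452595_at) was 5.92 in normal 3 against 6.38 to 6.43 in the other normals, a gap of 0.905 of the range, and its second probe set was also lowest there among normals (5.44).

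The Pdgfra difference (1421917_at) took opposite signs in the sexes, -0.54 in females and 0.25 in males, with an interaction of 0.79 (unadjusted p = 0.0058, adjusted p = 0.34, limma). This interaction failed the correction over all genes, 11.5% of genes had an unadjusted p under 0.05 for this term, and the female normals include normal 1. The dimmer probe set (1421916_at) was lower in mutants of both sexes. In females it read 4.33 and 4.48 in normals and 4.17 and 4.01 in mutants. In males it read 4.68 and 4.79 in normals and 4.37 and 4.19 in mutants.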

How the results depend on the processing

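Over 26 alternatives, 5 of them chosen after seeing the data, the number of members lower at an unadjusted p under 0.05 stayed at 3 to 5, and at 4 in every fit that left out 1 animal. Car2 ranged from -0.91 to -0.66, Adamts4 from -0.96 to -0.59, Evi2a from -1.08 to -0.75 and Il33 from -0.93 to -0.53. Il33 had an unadjusted p of 0.0612 without normals 1 and 4. Adamts4 and C1ql1 had no value without the 40% of genes with the lowest mean. With array weights, 1 member (Car2, -0.76) passed the adjusted threshold. C1ql1 was the 1 member higher at an unadjusted p under 0.05 without mutant 2, against 0 in the other left-out fits. The C1ql1 difference was 0.071 without mutants 1 and 3.

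Differences of the lineage factors and Pdgfra varied in both directions. With the neuron mean as a covariate, Olig2 was -0.60 (unadjusted p = 0.0355, limma) and the median of the lineage factors -0.58. Pdgfra was -0.27 (unadjusted p = 0.0253, limma) with the mean of all probe sets. Olig1 was 0.048 with array weights, 0.065 without mutants 1 and 3, and -0.18 to 0.055 with 1 animal left out. Olig2 was 0.035 with array weights, 0.0015 without normals 1 and 4, and -0.49 to 0.045 with 1 animal left out. Pdgfra was 0.057 with array weights and 0.20 without normals 1 and 4. The third Sox10 probe set ran from -0.026 to 0.17 with 1 animal left out.

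Over all genes (1 lower, 12 higher), the lower count was 3 with the mean of all probe sets and 4 with array weights. It was 0 with sex and age as covariates, under the replicate block, without mutants 1 and 3, normals 1 and 3, or normals 1 and 4, and with the neuron mean as a covariate. The higher count was 7 without dim genes, 32 with array weights, 2 under the replicate block, 6, 5 and 7 in these 3 pairwise omissions and 6 with the neuron mean. With 1 animal left out the counts ran from 0 to 22 lower (22 without normal 2) and 5 to 18 higher. Of the other mature genes, the count past the adjusted threshold (1) was 3 with the mean of all probe sets, 0 in each setting where the lower count over all genes was 0, and 0 to 1 with 1 animal left out. Their count at an unadjusted p under 0.05 (24) was 9 without mutants 1 and 3, 12 without normals 1 and 3, and 13 to 32 with 1 animal left out. The cause was not tested. The replicate numbers do not pair the animals, and the replicate block left 4 members lower at an unadjusted p under 0.05.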
